A study of Mus musculus with 12 samples.

Results

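Small nucleolar RNAs (snoRNAs) and the transcripts that host them were measured in 3T3-L1 adipocytes with more or less of the transcription factor Foxp1. The members were the genes whose symbols begin with Snord, Snora, Scarna or Snhg followed by a number, together with Gas5, and that reached at least 1 RPKM (reads divided by exon length and by library size) in at least 3 of 12 libraries. Of 28948 genes listed in the matrix, 80 carried such a name and 40 of these were members, among 11245 genes that passed the same filter. They comprised 20 of 40 listed box C/D snoRNAs (Snord), 7 of 19 box H/ACA snoRNAs (Snora), 1 of 6 Cajal body RNAs (Scarna2) and 12 of 15 host transcripts. Hosts were taken by name, and Snhg9, Snhg14 and Snhg7os did not pass. Neither Snhg14 nor Snhg7os, an antisense transcript in the annotation, encloses a listed snoRNA by coordinates. At the edge of the filter, Snord123, Snord53 and Snord59a passed with 3 libraries at 1 RPKM or more, and Snora73a, Snord43, Scarna17, Snord35a, Snord91a and Snord88c had 2.

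3T3-L1 is a fibroblast-like mouse line of Swiss strain origin that turns into fat cells in culture. All 4 groups had 3 libraries each and were differentiated alike, in a medium with insulin (5 µg/ml), troglitazone (10 µM), dexamethasone (1 µM) and isobutylmethylxanthine (0.5 mM), with insulin only from day 4 and growth medium from day 6. Cells overexpressing Foxp1 had cells with an empty vector as their control, and knockdown cells, which carried a hairpin RNA directed at Foxp1, had cells with a scrambled hairpin. The labels give neither the day of harvest, nor the vector and its promoter, nor what a replicate is, so p-values measure only the spread between these libraries, which may be technical.

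Foxp1 itself averaged 1.80 ± 0.0349 RPKM with empty vector, 6.56 ± 0.71 with overexpression, 2.18 ± 0.0624 with the scrambled hairpin and 1.11 ± 0.0335 with knockdown (SD, n = 3 each). All 8 adipocyte markers examined, among them Adipoq and Plin1, were expressed in each group, with summed levels of 8892 to 9109 RPKM with empty vector, 3551 to 3836 with overexpression, 6466 to 6701 with the scrambled hairpin and 9131 to 9785 with knockdown. With overexpression all 8 adipocyte markers fell, beside 20.3% of all tested genes. With knockdown 5 of the 8 rose and 2 (Cebpa and Pparg) fell, beside 18.7% and 31%. All 4 endothelial markers and 3 of 4 macrophage markers were under 1 RPKM in every library. The 6 preadipocyte or fibroblast markers summed to 104 to 116 RPKM with empty vector, 114 to 119 with overexpression, 134 to 153 with the scrambled hairpin and 116.8 to 132 with knockdown, and of the 5 tested 3 rose and 2 fell with overexpression and 1 rose and 2 fell with knockdown. Of 3 listed skeletal muscle markers 2 were under 1 RPKM in every library, and the actin gene Acta1 was called in each comparison, at 13.0 ± 0.605 RPKM with empty vector, 39.7 ± 3.14 with overexpression, 1.05 ± 0.046 with the scrambled hairpin and 1.69 ± 0.195 with knockdown. The part of these markers in the results on snoRNAs was not tested. Libraries held 35252018 to 38450003 reads in genes. The mitochondrial genome took 4.80% to 13.1% of them, and the highest share, in overexpression replicate 3, stood beside 9.99% and 9.65% in the other libraries of its group.

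SnoRNAs are short nuclear RNAs that guide the chemical modification of other RNAs, chiefly ribosomal RNA, and most in mammals are cut out of the introns of host genes after splicing. Box C/D snoRNAs carry a C box near the start and a D box near the end and guide 2′-O-methylation by fibrillarin. Box H/ACA snoRNAs end in an ACA trinucleotide and guide pseudouridylation by dyskerin. Cajal body RNAs do the same for spliceosomal RNAs. Many hosts are genes for ribosomal proteins and translation factors, while Gas5 and the Snhg genes make spliced RNAs with little known coding content, several of which are degraded by nonsense-mediated decay.

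The sequences of 7 snoRNAs are shown because the results turn on them. They are the most abundant member, the 3 members from a single host that fell while they rose, and 3 box H/ACA members. They come from the GENCODE M21 transcripts of GRCm38. Capitals mark TGATGA within the first 20 bases (box C), CTGA within the last 15 bases (box D) or ACA within the last 6 bases.
Snord104: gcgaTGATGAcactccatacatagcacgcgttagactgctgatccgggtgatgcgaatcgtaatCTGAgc
Snord49a: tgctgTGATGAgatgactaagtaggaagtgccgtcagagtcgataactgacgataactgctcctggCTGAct
Snord49b: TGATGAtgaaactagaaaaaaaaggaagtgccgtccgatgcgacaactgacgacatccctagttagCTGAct
Snord65: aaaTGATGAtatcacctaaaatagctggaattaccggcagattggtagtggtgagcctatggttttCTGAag
Snora57: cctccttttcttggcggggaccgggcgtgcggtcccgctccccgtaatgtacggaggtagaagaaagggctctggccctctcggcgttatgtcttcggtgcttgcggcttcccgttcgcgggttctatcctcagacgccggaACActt
Snora73b: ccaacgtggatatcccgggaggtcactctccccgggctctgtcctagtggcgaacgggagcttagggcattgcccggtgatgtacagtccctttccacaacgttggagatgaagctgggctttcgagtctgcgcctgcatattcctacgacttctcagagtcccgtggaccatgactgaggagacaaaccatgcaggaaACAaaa
Snora31: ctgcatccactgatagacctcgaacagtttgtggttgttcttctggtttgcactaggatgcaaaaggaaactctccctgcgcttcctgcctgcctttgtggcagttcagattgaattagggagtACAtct
Both boxes were found by these letters, on the transcript strand, in 14 of the 19 box C/D members searched. Snord58b was left out of this search. The shares were 69.4% of 98 Snord genes of the annotation, 0% of 42 Snora genes and 0% of 1383 snRNA genes. The ACA was found in 7 of 7 box H/ACA members, in 92.9% of Snora genes, 5.10% of Snord genes and 2.24% of snRNA genes. Snord49a and Snord49b share a run of 13 bases, aggaagtgccgtc, which starts at base 23 of each. They were 69.4% identical, so that their reads can be told apart over most of their length. Near-identical copies made 5 levels uncertain: Snora41 was 97.7% identical to Gm23723, Snora73b 96.6% to Snora73a, Snora57 95.95% to Gm26132, Snord58b 94.3% to Gm22354 and Snora17 91.7% to Gm25617.

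Most snoRNA members were read only a few times. They were 64 to 414 bases long, and a single read in a gene of 70 bases was worth 0.372 to 0.405 RPKM. Of the 28 snoRNA and Cajal body members, 21 had fewer than 10 reads per library on average and 7 had at least 10. Snord104 stood highest at a mean of 48.4 RPKM over the 12 libraries (127 reads per library), followed by Snord49a at 6.77 RPKM (18.2 reads), Snora57 at 6.61 RPKM (36.6 reads), Snord34 at 3.17 RPKM (8.33 reads) and Snord65 at 3.11 RPKM (8.42 reads). The host transcripts were longer and better measured. They ranged from Snhg10 at 1.96 RPKM (38.7 reads) to Snhg18 at 16.2 RPKM (900 reads).

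With knockdown of Foxp1 the summed box C/D and box H/ACA reads were above those of the scrambled hairpin in every library, and with overexpression they overlapped those of empty vector. These sums, in RPM (reads scaled to library size, before division by length), take every listed gene of a class, whether or not it passed the filter. The 40 box C/D snoRNAs together made up 6.00, 6.02 and 5.86 RPM with the scrambled hairpin and 8.85, 9.64 and 10.2 with knockdown, a ratio of means of 1.60. The 19 box H/ACA snoRNAs summed to 2.57, 2.85 and 2.90 RPM with the scrambled hairpin and 4.69, 4.13 and 5.42 with knockdown, a ratio of 1.71. For both classes all 3 knockdown libraries lay above all 9 other libraries. With empty vector the box C/D sum was 6.72, 5.67 and 5.45 and with overexpression 6.32, 6.42 and 4.81 RPM (ratio 0.984). The box H/ACA sum was 2.79, 2.65 and 3.04 with empty vector and 2.82, 3.13 and 3.61 with overexpression (ratio 1.13), so both classes overlapped in that comparison. The 6 listed Cajal body RNAs overlapped in both, at 0.393, 0.340 and 0.528 RPM with the scrambled hairpin and 0.320, 0.503 and 0.612 with knockdown (ratio 1.14), and at a ratio of 1.11 with overexpression. In these bulk samples, fewer cells of a type and less RNA per cell cannot be told apart.

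The higher sum with knockdown was also seen without the most abundant snoRNA. Without Snord104 the other 64 listed snoRNA and Cajal body genes summed to 6.03 ± 0.392 RPM with the scrambled hairpin and 10.6 ± 0.877 with knockdown (SD, n = 3 each), a ratio of 1.75. Of all 65 listed genes, 48 had a higher mean with knockdown, 14 a lower and 3 the same, over 1046 control and 1669 knockdown reads. The 37 that did not pass the filter showed 24 higher, 10 lower and 3 the same. For overexpression the 65 split into 35 higher, 26 lower and 4 the same, over 1040 and 1064 reads. A further 152 genes annotated as snoRNAs or Cajal body RNAs under other names summed to 5.53 ± 0.246 RPM with the scrambled hairpin and 8.30 ± 0.316 with knockdown (ratio 1.501), with 97 higher and 35 lower. Their overexpression ratio was 0.973.

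With knockdown, the snRNA and miRNA sums had ratios nearer to 1. The 174 listed snRNA genes, parts of the spliceosome, summed to 2.38 ± 0.497 RPM with the scrambled hairpin and 2.82 ± 0.451 with knockdown, a ratio of 1.18, and to a ratio of 1.21 with overexpression. The 318 listed miRNA genes other than Gm23935, which was left out after its values were seen, gave 0.908 with knockdown and 1.05 with overexpression. Of the 9 listed genes on a list of other short noncoding RNAs, 2 were tested: Rnu1a1, a U1 spliceosomal RNA, rose with knockdown from 0.746 ± 0.603 to 1.57 ± 0.182 RPKM (0.61, adjusted p = 0.0289), and Rn7sk did not pass. Both were lower with the scrambled hairpin than with empty vector, by log2 values of -0.72 and -0.42. Among the 234 other tested genes in the length range of the snoRNA members, 20 rose and 15 fell with knockdown, beside 2100 and 3487 of all 11245 tested genes, with a median log2 fold change of 0.02. With overexpression 66 rose and 17 fell, beside 3490 and 2285, with a median of 0.20.

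**Figure D1:**
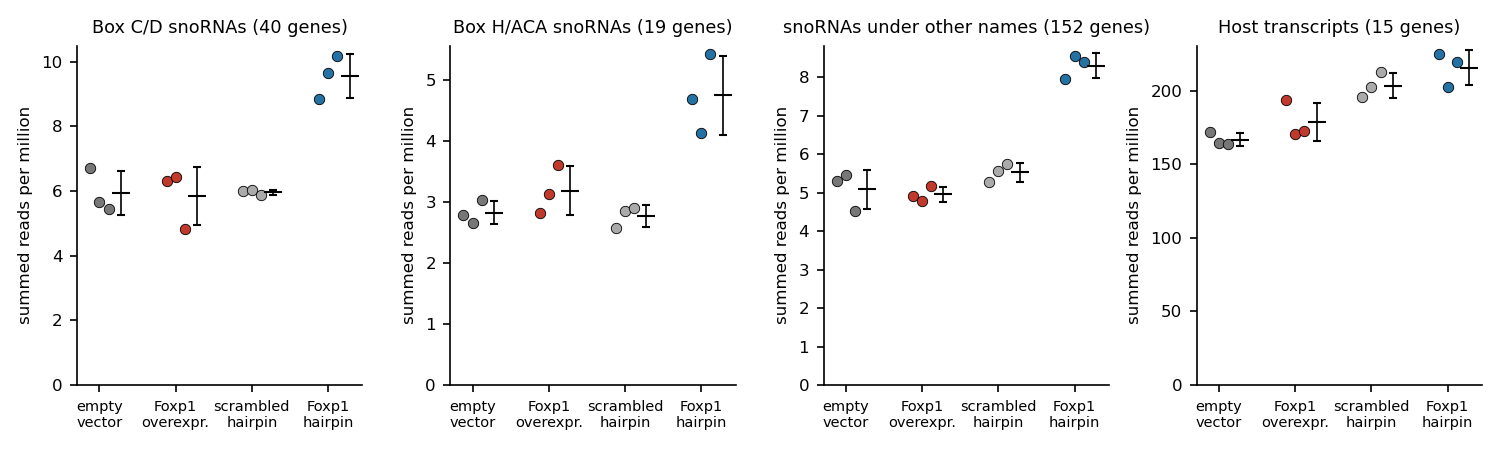
Summed level in RPM (vertical axes, starting at 0) of the listed box C/D, box H/ACA and otherwise named snoRNA genes and of the listed host transcripts, by group. Points are the 3 libraries, and bars are the mean and SD. In the 3 snoRNA panels the knockdown libraries lie above all others, while in the host panel the scrambled and knockdown libraries overlap.

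Tests ran on log2(RPKM + 1) across all 11245 genes with limma, and adjusted p-values are Benjamini-Hochberg over those genes. On this scale the change of a low gene is understated. With knockdown, 8 of 20 box C/D members rose and 0 fell, beside 49.7% of all tested genes called in either direction, 18.7% that rose and 31% that fell. Their median log2 fold change was 0.49, beside -0.04 over all tested genes. At an unadjusted p under 0.05, limma had 10 higher and 0 lower, and voom on the recovered reads, with adjustment, had 8 and 0. Of 7 box H/ACA members 5 rose and 0 fell, with a median of 0.60. At an unadjusted p under 0.05 limma again had 5 and 0, as did adjusted calls with voom. In RPKM, all 3 knockdown libraries exceeded all 3 scrambled ones for 11 of 28 snoRNA and Cajal body members, beside 23.1% of tested genes. They were below them for 0, beside 36.5%. For Snora31, among the 11, the groups met in reads. The knockdown split over all genes, 2100 up and 3487 down, became 2628 and 2955 under median-ratio scaling. Scaled to TPM, which sum to the same total in each library, it became 1611 and 3724. A filter can favour genes that are high in one group. When only the other 9 libraries were counted toward the filter, 26 of the 28 members passed, and 12 of these rose and 0 fell. With no filter at all, 9 of the 65 listed snoRNA and Cajal body genes rose and 0 fell, beside 7.92% and 12.1% of 28948 listed genes, and 6 of the 13 members called with the filter stayed called. The box H/ACA count was 3 without scrambled replicate 1, 3 without scrambled replicate 3 and 1 without knockdown replicate 3.

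Among the box C/D members, Snord104 was the most abundant. It lies at chr11:106500993-106501062 on the plus strand of GRCm38, with no enclosing gene in the annotation used here. Snord104 was read at 47.4, 42.7 and 47.4 RPKM with empty vector, 47.6, 48.6 and 31.1 with overexpression, 48.3, 43.0 and 42.6 with the scrambled hairpin and 57.1, 57.5 and 66.8 with knockdown. The knockdown libraries were the 3 highest of the 12, and overexpression replicate 3 was the lowest. The log2 fold change with knockdown was 0.43 ± 0.14 (SE), with adjusted p = 0.0197. That call was lost without scrambled replicate 2 (adjusted p = 0.0604), scrambled replicate 3 (0.0596) or knockdown replicate 3 (0.0803). With overexpression the value was -0.14, with a 95% interval of -0.43 to 0.16.

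Snord49a, Snord49b and Snord65 lie close together in introns of 2410006H16Rik, a noncoding host on chromosome 11. Snord49a was at 8.05, 4.33 and 5.52 RPKM with empty vector, 8.66, 4.54 and 4.91 with overexpression, 4.37, 5.81 and 2.20 with the scrambled hairpin and 10.4, 11.8 and 10.7 with knockdown. The knockdown libraries again exceeded the other 9, and the log2 fold change was 1.29 ± 0.27 (adjusted p = 0.00197). Snord65 was at 2.20, 1.81 and 0 RPKM with empty vector, 3.39, 2.65 and 1.13 with overexpression, 1.82, 1.45 and 2.57 with the scrambled hairpin and 10.0, 4.78 and 5.54 with knockdown. No knockdown library overlapped another group, at a log2 fold change of 1.36 ± 0.40 (adjusted p = 0.0143). This call was lost without scrambled replicate 2 (adjusted p = 0.0520) or knockdown replicate 1 (0.0640). It was also lost at a pseudocount of 0.1 RPKM (log2 fold change 1.71, adjusted p = 0.144) and with no filter (adjusted p = 0.0627).

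Snord49b followed a different order over the groups. It was at 3.66, 2.89 and 2.36 RPKM with empty vector, 3.39, 1.13 and 2.64 with overexpression, 0.364, 0.727 and 1.10 with the scrambled hairpin and 3.33, 3.31 and 4.43 with knockdown. Here the scrambled libraries were the 3 lowest of the 12 in RPKM, and the knockdown libraries overlapped those with empty vector. The highest scrambled and the lowest overexpression library held equally many Snord49b reads, so that their order comes from library size. The scrambled libraries held 6 Snord49b reads in all and the knockdown libraries 30. Its log2 fold change was 1.45 ± 0.23 with knockdown (adjusted p = 2.93e-04) and -1.21 ± 0.23 for scrambled hairpin against empty vector (adjusted p = 5.13e-04). These comparisons share the scrambled libraries.

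Rpl13a, a gene for a protein of the large ribosomal subunit on chromosome 7, encloses Snord32a and Snord34. Snord32a was at 1.91, 1.88 and 1.03 RPKM with empty vector, 1.31, 0.656 and 0.655 with overexpression, 1.58, 1.58 and 1.59 with the scrambled hairpin and 2.57, 4.79 and 3.84 with knockdown. It is the 1 snoRNA member that passed the threshold in both comparisons, rising by 0.85 ± 0.18 with knockdown (adjusted p = 0.00222) and changing by -0.47 ± 0.18 with overexpression (adjusted p = 0.0460). The overexpression groups overlapped, on 15 and 8 reads, and that call was lost in 8 of the 12 fits that each left out 1 library, with adjusted p between 0.0584 and 0.149. Snord34 was at 3.01, 2.60 and 2.84 RPKM with empty vector, 0.387, 1.56 and 2.72 with overexpression, 1.87, 4.86 and 2.26 with the scrambled hairpin and 5.33, 6.43 and 4.18 with knockdown. Neither of its comparisons passed the test, with log2 fold changes of 0.72 (adjusted p = 0.0786) and -0.69 (adjusted p = 0.0869).

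The other box C/D members that rose with knockdown were Snord58b (log2 fold change 1.26, adjusted p = 0.00135, in Rpl17), Snord83b (0.94, adjusted p = 0.0150, in Rpl3) and Snord72 (0.73, adjusted p = 0.0105, in Rpl37). Snord83b had 24 scrambled and 55 knockdown reads, Snord72 17 and 35, and Snord58b 4 and 19. The knockdown and scrambled groups overlapped for Snord83b and not for Snord72 and Snord58b. The call of Snord83b was lost without scrambled replicate 2 (adjusted p = 0.0707) or knockdown replicate 3 (0.0708). Among the remaining box C/D members, Snord37, Snord4a, Snord59a, Snord42a, Snord55, Snord42b and Snord87 had log2 fold changes from 0.09 to 0.60, and Snord53, Snord73a, Snord7 and Snord123 from -0.56 to -0.03, and with Snord34 none of these passed. Snord4a and Snord42a also overlap an exon on the opposite strand and Snord42b an exon on the same strand, and the strand setting of the counts is not given in the sources used here.

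**Figure D2:**
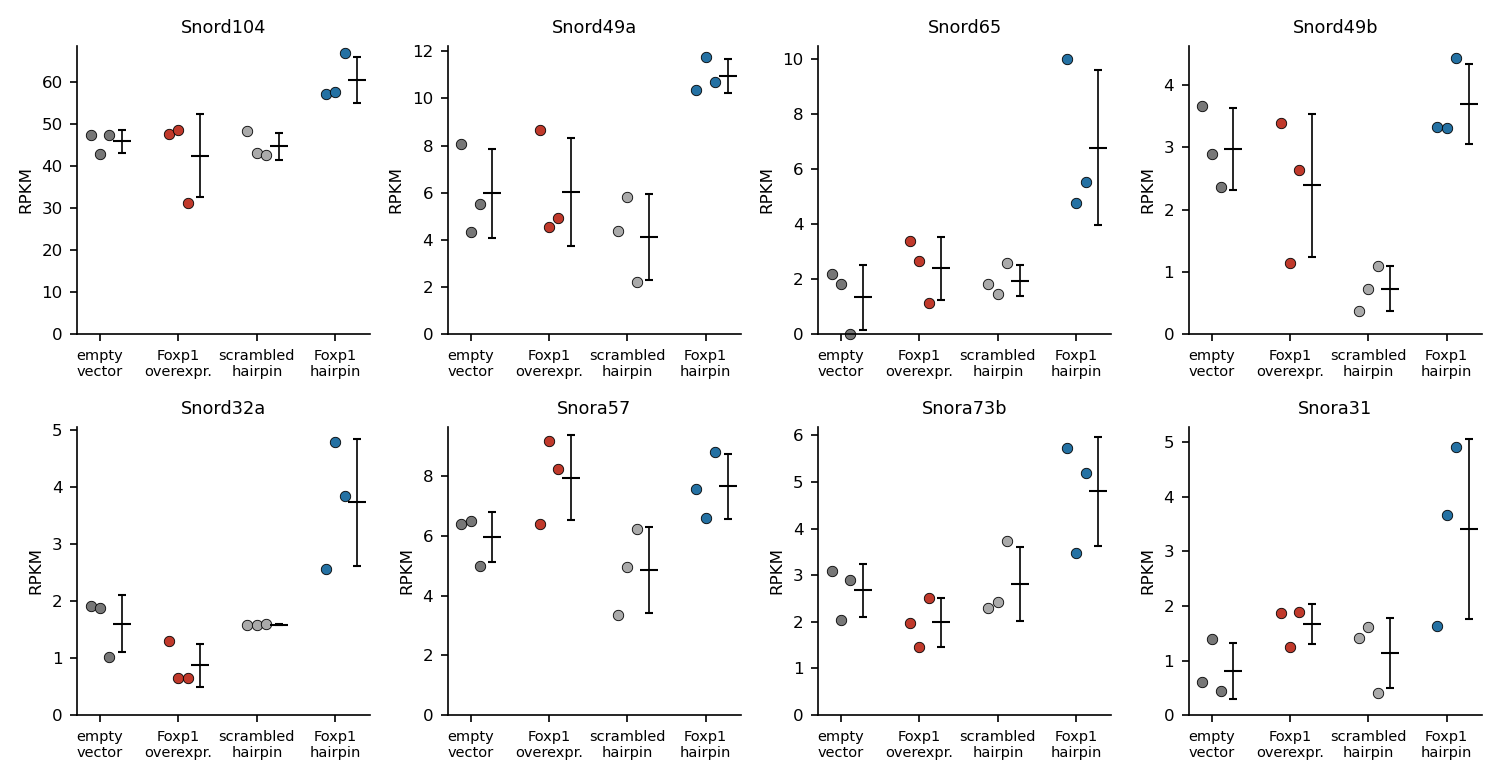
RPKM (vertical axes, starting at 0) of 8 snoRNAs in the 4 groups. Points are the 3 libraries of a group, and bars are the mean and SD. Snord104, Snord49a, Snord65 and Snord32a are higher in the knockdown libraries than in all others. Snord49b is lowest in the scrambled libraries in RPKM, while in reads they meet the lowest overexpression library.

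The box H/ACA members were led by Snora57, which lies at chr19:8888538-8888685 on the minus strand with no enclosing gene in the annotation. Snora57 was at 6.41, 6.50 and 4.98 RPKM with empty vector, 6.41, 9.19 and 8.26 with overexpression, 3.36, 4.95 and 6.24 with the scrambled hairpin and 7.57, 6.62 and 8.80 with knockdown. Knockdown exceeded its own control in every library but overlapped overexpression, which was as high. The log2 fold change was 0.59 ± 0.17 with knockdown (adjusted p = 0.0131) and 0.36 with overexpression (adjusted p = 0.102). The knockdown call was lost without scrambled replicate 1 (adjusted p = 0.0564) or knockdown replicate 3 (0.0571).

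Snora73b lies in Snhg3 on chromosome 4 and belongs to the U17 snoRNAs, which are known for early cleavage of the ribosomal RNA precursor. It was at 3.09, 2.03 and 2.91 RPKM with empty vector, 1.98, 1.46 and 2.52 with overexpression, 2.30, 2.42 and 3.73 with the scrambled hairpin and 5.72, 3.49 and 5.19 with knockdown. One scrambled library lay above the lowest knockdown library, and the log2 fold change was 0.60 ± 0.18 (adjusted p = 0.0170). The call was lost without scrambled replicate 1 (adjusted p = 0.0694), scrambled replicate 2 (0.0633), knockdown replicate 1 (0.0727) or knockdown replicate 3 (0.0605). Snora73b overlaps an exon on the opposite strand as well.

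Snora31 lies in Tpt1, the gene of translationally controlled tumour protein, on chromosome 14. It was at 0.608, 1.40 and 0.436 RPKM with empty vector, 1.88, 1.26 and 1.88 with overexpression, 1.41, 1.61 and 0.406 with the scrambled hairpin and 1.64, 3.67 and 4.91 with knockdown. The lowest knockdown value was just above the highest scrambled one, and overexpression overlapped knockdown. Those 2 libraries held equally many Snora31 reads, so that their order in RPKM comes from library size. Its log2 fold change was 1.01 ± 0.30 with knockdown (adjusted p = 0.0135), lost without scrambled replicate 3 (0.0608) or knockdown replicate 3 (0.0649). Snora17 (0.72, adjusted p = 0.0285, on 30 and 56 reads) and Snora69 (0.73, adjusted p = 0.0104, on 8 and 23 reads) rose too. The call of Snora17 was lost without scrambled replicate 3 (adjusted p = 0.103), knockdown replicate 2 (0.107) or knockdown replicate 3 (0.0625). Snora78 (0.37) and Snora41 (0.21) were not past the threshold. Scarna2, which guides modification of a spliceosomal RNA, was at 24 and 37 reads, with a log2 fold change of 0.24 (adjusted p = 0.0858) and an interval of 0.00 to 0.49. It was lower with the scrambled hairpin than with empty vector (0.508 ± 0.171 and 0.827 ± 0.176 RPKM, log2 fold change -0.28, adjusted p = 0.0385), a call lost without empty vector replicate 2 or 3 or scrambled replicate 1 or 2 (adjusted p = 0.0525 to 0.154).

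With overexpression of Foxp1, 1 of 20 box C/D members rose (Snord73a) and 1 fell (Snord32a), beside 31% and 20.3% of all tested genes and 51.4% in either direction. The split over all genes, 3490 higher and 2285 lower, became 2426 higher and 2566 lower when values were scaled to TPM, which sum to the same total in each library. The box C/D median was 0.07, beside 0.04 over all genes. Of the 7 box H/ACA members, limma called 0 in either direction, with 0 at an unadjusted p under 0.05 and 0 by voom, and their median was -0.02. Snord73a, in an intron of the ribosomal protein gene Rps3a1, was at 0.388, 0 and 0 RPKM with empty vector, 0.797, 0.400 and 0.799 with overexpression, 1.16, 2.31 and 1.94 with the scrambled hairpin and 1.96, 1.17 and 1.95 with knockdown. The adjusted p was 0.0206. The lowest overexpression and the highest empty vector library each held 1 read, so that their order in RPKM comes from library size. The call rests on 5 reads against 1, a ratio of 5.05 with an exact 95% binomial interval of 0.566 to 239 that covers counting error only. That call was lost without empty vector replicate 2 (adjusted p = 0.0747), empty vector replicate 3 (0.0765), overexpression replicate 1 (0.0651) or overexpression replicate 3 (0.0542). In RPKM it was the 1 member of 28 whose groups did not overlap upwards, beside 34.4% of all genes, but in reads its groups met at 1. Downwards 0 did so, beside 23.1%.

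**Figure D3:**
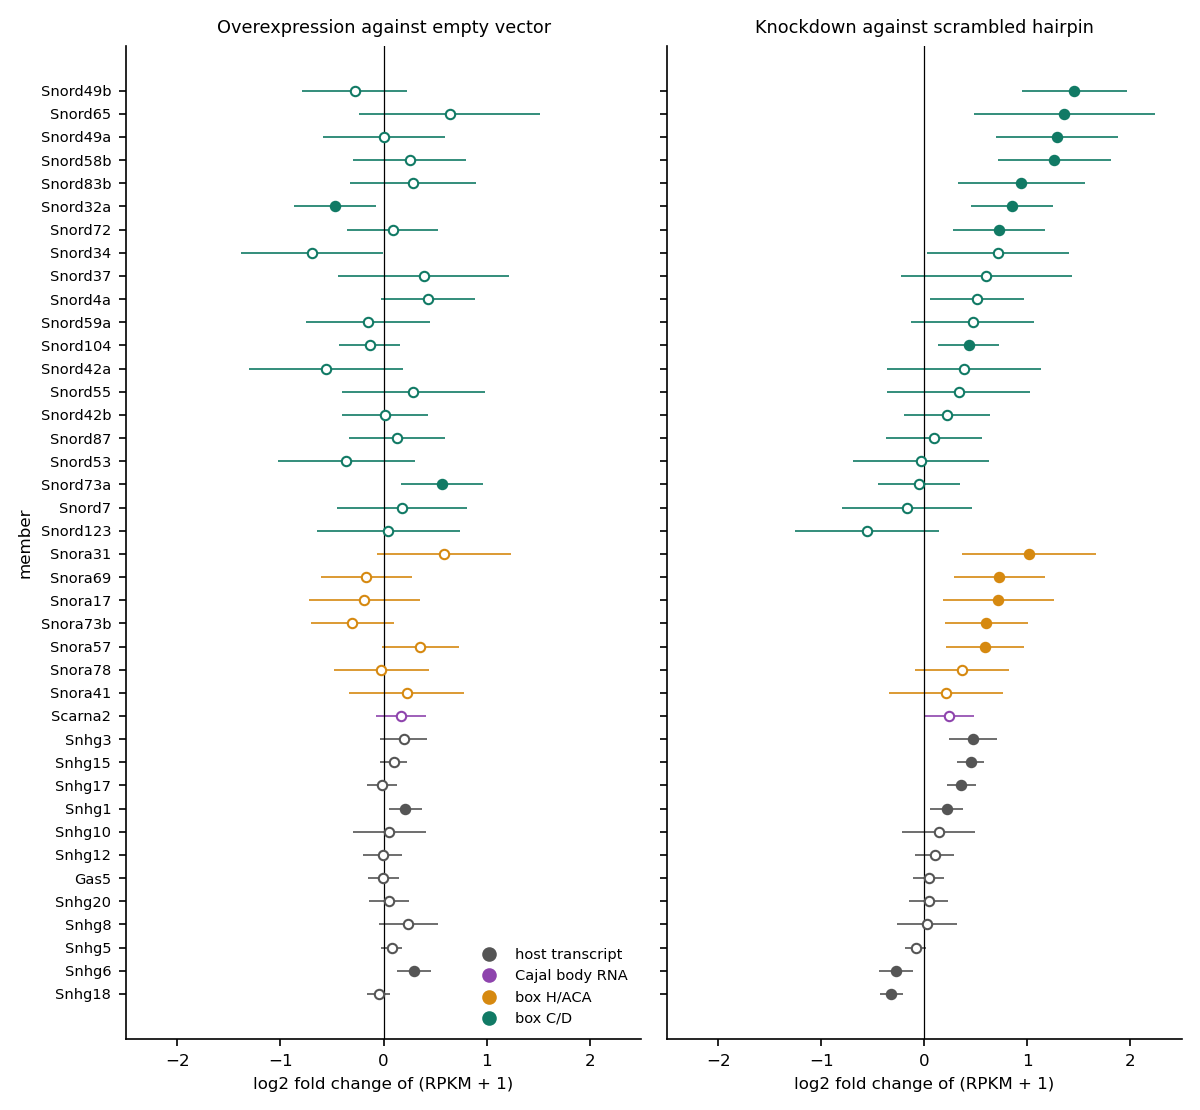
Log2 fold change of RPKM + 1 (horizontal axes) of each of the 40 members (vertical axis) with overexpression and with knockdown. Circles are limma estimates, filled where adjusted p is under 0.05, and lines are 95% intervals. In the knockdown panel 13 snoRNA circles are filled, each to the right of 0, whereas the host circles lie on both sides.

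The host transcripts were called in both directions with knockdown, and their summed levels overlapped with knockdown and with overexpression. The 15 listed hosts, Gas5 included, summed to 203.6 ± 8.64 RPM with the scrambled hairpin and 215.9 ± 11.8 with knockdown (ratio 1.06), and to 166.8 ± 4.55 with empty vector and 178.9 ± 12.8 with overexpression (ratio 1.07). With knockdown 4 of 12 host members rose and 2 fell, beside 18.7% and 31% of all tested genes, with a median log2 fold change of 0.07. With overexpression 2 of 12 rose and 0 fell, beside 31% and 20.3%. At an unadjusted p under 0.05, limma had 2 and 0 as well, and voom called 2 and 0. Without overexpression replicate 3 the count was 4 and 0. Without an empty vector library, or without overexpression replicate 1, it was 1.

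Snhg3, the host of Snora73b, rose most in RPKM. It was at 12.8, 11.6 and 13.2 RPKM with empty vector, 14.1, 12.5 and 17.1 with overexpression, 14.0, 14.4 and 17.5 with the scrambled hairpin and 23.9, 20.4 and 20.5 with knockdown. The knockdown libraries were the 3 highest of the 12, at a log2 fold change of 0.47 ± 0.11 (adjusted p = 0.00295). Snhg15 was at 1.998, 1.84 and 1.76 RPKM with empty vector, 2.17, 2.26 and 1.80 with overexpression, 1.90, 2.18 and 1.97 with the scrambled hairpin and 3.05, 3.20 and 3.10 with knockdown, a change of 0.45 ± 0.06 (adjusted p = 7.14e-05). Snhg17 was likewise highest with knockdown, with 1.65, 2.17 and 1.99 RPKM under the scrambled hairpin and 2.66, 2.94 and 2.68 under knockdown (0.36 ± 0.07, adjusted p = 7.44e-04). For Snhg15 and Snhg17 too, no knockdown library fell to the level of any other. Snhg15 and Snhg17 contain no listed snoRNA by coordinates in the annotation used here. The same held for Snhg1, Gas5, Snhg5, Snhg8, Snhg12 and Snhg20.

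Snhg1, a long-known host of several snoRNAs, was called in both comparisons in the same direction. It was at 9.37, 9.31 and 9.50 RPKM with empty vector, 12.7, 9.95 and 10.6 with overexpression, 10.9, 10.5 and 11.1 with the scrambled hairpin and 13.7, 11.7 and 12.9 with knockdown. Neither comparison showed overlap, and the log2 fold changes were 0.21 ± 0.07 (adjusted p = 0.0309) and 0.22 ± 0.07 (adjusted p = 0.0273). The overexpression call was lost without any one empty vector library (adjusted p = 0.0617 to 0.0751) or without overexpression replicate 1 (0.120). The knockdown call was lost without scrambled replicate 1 (0.0623), scrambled replicate 2 (0.0834), knockdown replicate 1 (0.111) or knockdown replicate 3 (0.0723).

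The hosts that fell with knockdown were Snhg6 and Snhg18. Snhg6, the host of Snord87, was at 6.76, 7.33 and 5.89 RPKM with empty vector, 8.59, 8.15 and 8.42 with overexpression, 11.6, 12.2 and 13.9 with the scrambled hairpin and 10.5, 9.50 and 10.6 with knockdown. Its groups overlapped in neither comparison, and it changed by 0.30 ± 0.07 with overexpression (adjusted p = 0.00530) and by -0.27 ± 0.07 with knockdown (adjusted p = 0.00869). Snhg18, the host of Snord123, was at 16.9, 15.8 and 15.8 RPKM with empty vector, 15.9, 14.7 and 16.2 with overexpression, 18.0, 17.8 and 19.4 with the scrambled hairpin and 14.8, 13.7 and 15.05 with knockdown. The knockdown libraries lay below all 3 scrambled libraries, at -0.32 ± 0.05 (adjusted p = 2.61e-04), and the overexpression value was -0.05.

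Gas5, whose RNA is named for growth arrest and whose introns encode box C/D snoRNAs, did not pass either test. It averaged 9.29 ± 0.331 RPKM with empty vector, 9.29 ± 0.775 with overexpression, 10.8 ± 0.478 with the scrambled hairpin and 11.2 ± 1.12 with knockdown. The 95% intervals of its log2 fold changes were -0.15 to 0.15 with overexpression and -0.11 to 0.19 with knockdown. Snhg5 was at 15.8 ± 0.338 RPKM with the scrambled hairpin and 14.8 ± 0.248 with knockdown, without overlap but at an adjusted p of 0.168. Snhg8, Snhg10, Snhg12 and Snhg20 had log2 fold changes of 0.03 to 0.14 with knockdown and -0.01 to 0.24 with overexpression, and none passed.

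**Figure D4:**
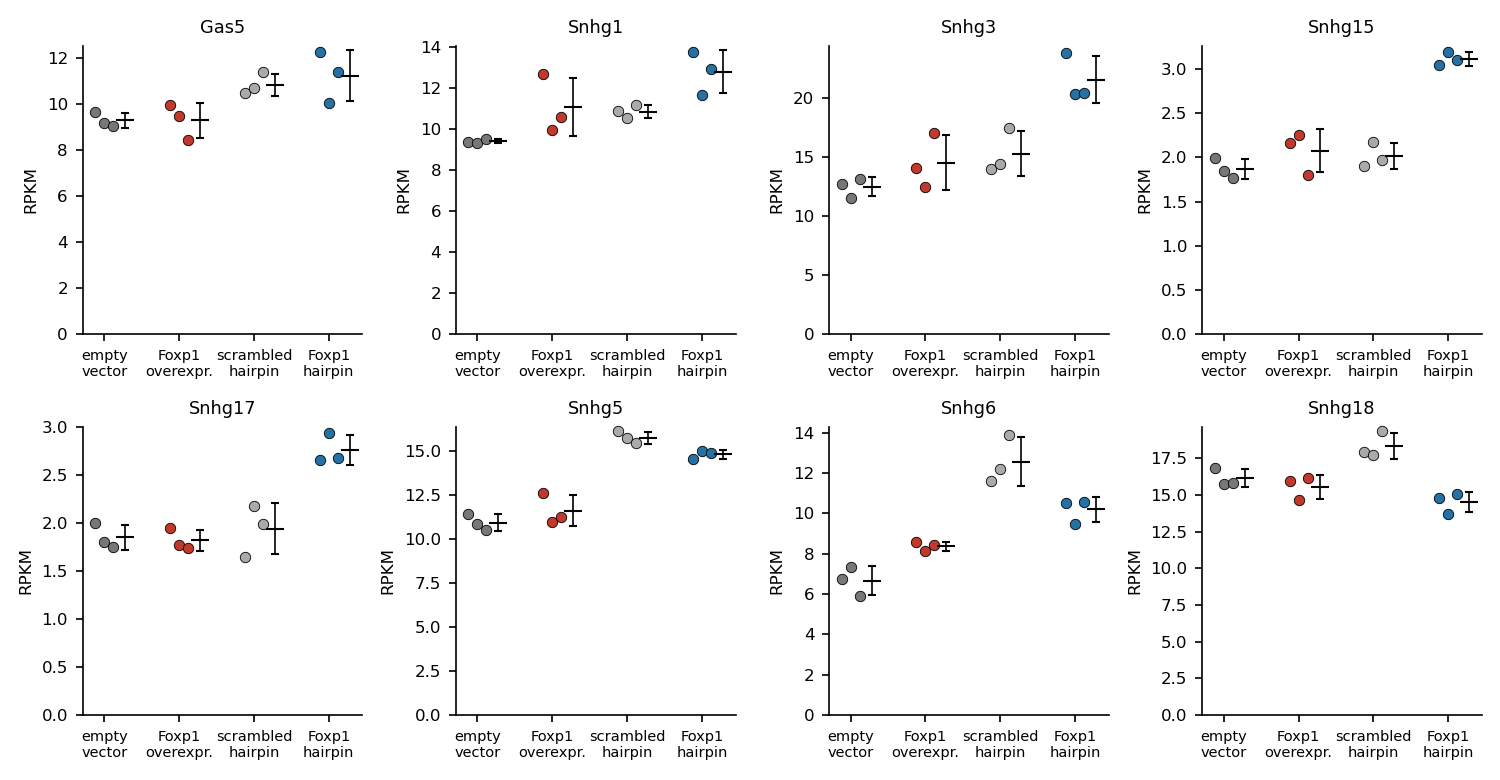
RPKM (vertical axes, starting at 0) of 8 host transcripts in the 4 groups, with points for the 3 libraries of a group and bars for the mean and SD. Snhg3, Snhg15 and Snhg17 are highest with knockdown, and the means of Snhg5 and Snhg6 are lowest with empty vector.

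By coordinates, 24 of the 28 snoRNA and Cajal body members lie inside a gene on the same strand, 23 of them within introns, and Snord104, Snora57, Snora17 and Scarna2 do not. Ribosomal protein genes hold 11 of the 24. For 23 members the host, 1 of 18 different genes, was itself tested. With knockdown 10 of these 23 snoRNAs rose, beside 18.7% of all tested genes. Their host rose for 2, fell for 3 and did not pass for 5. Over the 23 pairs the median log2 fold change was 0.60 for the snoRNAs and 0.01 for the 18 hosts, of which 3 rose and 4 fell, beside 18.7% and 31%. The log2 fold change of the snoRNA was above that of its host in 19 of 23 pairs. With overexpression the medians were 0.09 for the snoRNAs and 0.23 for the hosts, 11 of 18 hosts rose and 0 fell, beside 31% and 20.3% of all tested genes, and the snoRNA was above its host in 7 of 23 pairs. On log2(RPKM + 1) the change of a low snoRNA is understated more than that of a more abundant host. When both rise, this alone can place the snoRNA below its host. The part of the scale in the overexpression values was not tested. Snord49a, Snord49b and Snord65 share a host, as do Snord32a and Snord34, and Snord4a, Snord42a and Snord42b, so the pairs are not independent. The values do not separate a snoRNA from unspliced host RNA over the same bases, and their shares were not tested.

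The host 2410006H16Rik was at 154.3 ± 4.24 RPKM with the scrambled hairpin and 115.4 ± 10.7 with knockdown, a log2 fold change of -0.42 (adjusted p = 0.00113), while its 3 snoRNAs rose. With overexpression it rose from 118.7 ± 1.47 to 172.3 ± 22.0 RPKM (0.53, adjusted p = 1.80e-04), and its 3 snoRNAs had log2 fold changes of 0.00, -0.28 and 0.64, none past the threshold. Rpl13a was at 37.7 ± 1.04 RPKM with the scrambled hairpin and 37.6 ± 3.68 with knockdown (-0.01, adjusted p = 0.940), beside the rise of Snord32a. Tpt1 was at 423 ± 23.5 and 406 ± 26.7 RPKM (-0.06, adjusted p = 0.373), beside the rise of Snora31. In Snhg3 and Rpl3 host and snoRNA rose together, with 0.47 for Snhg3 and 0.60 for Snora73b, and with 0.14 for Rpl3 (adjusted p = 0.0298) and 0.94 for Snord83b.

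**Figure D5:**
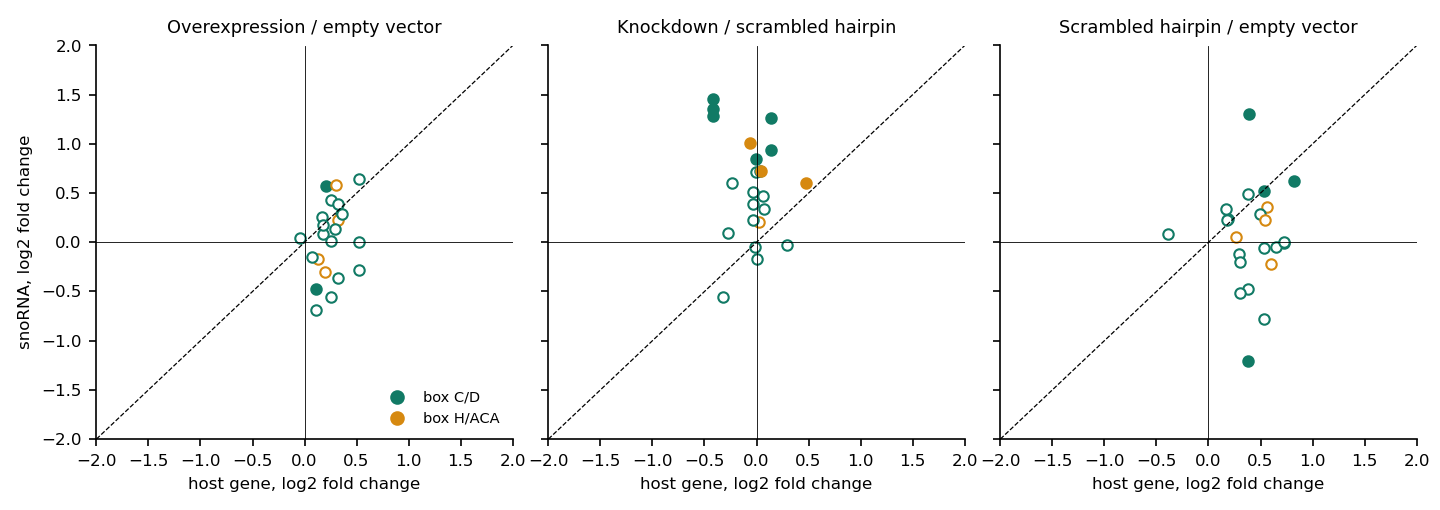
Log2 fold change of each snoRNA (vertical axes) against that of its host gene (horizontal axes) for 23 pairs in 3 comparisons. Filled circles are snoRNAs past the threshold, and the dashed line marks equal change. With knockdown 19 circles lie above the line, and the 3 highest share a host that fell.

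The proteins that bind and build snoRNAs were examined as named lists. All 4 box C/D core proteins rose with knockdown, beside 18.7% of all tested genes, with a median log2 fold change of 0.48. Nop56 went from 13.9 ± 1.09 to 26.8 ± 0.474 RPKM (0.90, adjusted p = 3.61e-07), Nop58 from 3.62 ± 0.269 to 5.82 ± 0.395 (0.56, adjusted p = 8.93e-06) and the methyltransferase fibrillarin, Fbl, from 2.91 ± 0.124 to 4.12 ± 0.283 (0.39, adjusted p = 1.35e-04). The same 3 genes rose with overexpression by less: Nop56 by 0.36, Nop58 by 0.28 and Fbl by 0.17, beside 31% of all tested genes. The difference between the responses passed the test for all 3, each lower under overexpression, beside 20.3%. Fbl, Nop58 and Snu13 were also higher with the scrambled hairpin than with empty vector, beside 44.8% of all tested genes. Of the 4 box H/ACA core proteins 3 rose with knockdown, beside the same share. Dkc1, the pseudouridine synthase, went from 7.16 ± 0.334 to 11.3 ± 0.604 RPKM (0.59, adjusted p = 1.16e-06), Nhp2 from 32.4 ± 2.1 to 48.4 ± 3.43 (0.56, adjusted p = 1.58e-04) and Nop10 from 86.1 ± 3.10 to 101 ± 6.69 (0.23, adjusted p = 0.0144). With overexpression Gar1 rose, from 6.78 ± 0.496 to 8.59 ± 0.712 RPKM, and the other 3 did not pass, beside 31% of all tested genes that rose. Dkc1 and Nhp2 were lower with the scrambled hairpin than with empty vector, by log2 values of -0.39 and -0.22, in the control group that the knockdown comparison rests on.

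Of 24 genes of RNA polymerase I transcription and ribosome biogenesis, 18 rose and 1 (Taf1b) fell with knockdown, beside 18.7% and 31% of all tested genes, with a median log2 fold change of 0.29. With overexpression 8 rose, a share near the 31% of all tested genes, and 2 fell (20.3%), with a median of 0.05. Between the controls 12 were higher and 7 lower with the scrambled hairpin (44.8% and 27% of all tested genes). Myc, a driver of ribosome synthesis, rose in both, from 26.0 ± 0.576 to 35.7 ± 1.25 RPKM with knockdown and from 20.6 ± 0.855 to 35.3 ± 1.08 with overexpression. Heatr1 went from 2.81 ± 0.0678 to 4.45 ± 0.25 and Polr1b from 1.98 ± 0.226 to 3.54 ± 0.0331 RPKM with knockdown. Both were among the 7 that were lower in that control than with empty vector, where Heatr1 was at 3.38 ± 0.129 and Polr1b at 3.09 ± 0.0838 RPKM. Of 15 assembly and Cajal body factors 3 rose with knockdown (Nolc1, Ruvbl1 and Znhit6) and 0 fell, the first near the share of all tested genes, and with overexpression 3 rose and 3 fell, at or below it. Of 13 genes of lariat debranching and exosome trimming, 3 rose with knockdown (Dis3, Exosc2 and Exosc10) and 2 fell (Parn and Tent4b), shares near and below those of all tested genes. Of 5 listed nuclear long noncoding RNAs 3 were tested. Malat1 and Tug1 rose with knockdown, beside 18.7% of all tested genes, while Neat1 was not past the threshold. Malat1 went from 57.8 ± 6.16 to 87.6 ± 15.2 RPKM and Tug1 from 11.1 ± 0.313 to 13.3 ± 0.328. All 3 were lower with the scrambled hairpin than with empty vector, beside 27% of all tested genes. With empty vector Malat1 was at 72.6 ± 11.6 and Tug1 at 14.0 ± 0.354 RPKM.

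The control groups also differed from each other. For scrambled hairpin against empty vector, 7 of 12 hosts were higher and 0 lower, beside 44.8% and 27% of all tested genes and 71.8% in either direction, with a median log2 fold change of 0.18. Snhg6 differed most, at 6.66 ± 0.725 and 12.6 ± 1.21 RPKM (0.82), followed by Snhg5 at 10.9 ± 0.458 and 15.8 ± 0.338 (0.49). The summed host level did not overlap between the controls, at 166.8 ± 4.55 RPM with empty vector and 203.6 ± 8.64 with the scrambled hairpin (ratio 1.22). Without scrambled replicate 3 the host count was 4. Of 20 box C/D members 3 were higher (Snord73a, Snord87 and Snord4a) and 1 lower (Snord49b), with a median of 0.00. With Scarna2, 5 of the 28 snoRNA and Cajal body members were called. The control groups did not overlap for those 4 box C/D members, beside 48.9% of all tested genes upwards and 30.1% downwards. The count of 4 was 2 without empty vector replicate 1 or 3 or scrambled replicate 1, and 6 without scrambled replicate 2. Of 7 box H/ACA members limma called 0, with 0 at an unadjusted p under 0.05 and 0 by voom. The box C/D sums of the controls were 5.95 ± 0.681 and 5.96 ± 0.0855 RPM and the box H/ACA sums 2.83 ± 0.193 and 2.77 ± 0.18.

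The test of the difference between the responses, overexpression minus knockdown, passed for 6 of 20 box C/D and 3 of 7 box H/ACA members, each with a lower value under overexpression, beside 20.3% of all tested genes. Upward calls were 0 in both classes, beside 34.6%. The split over all genes, 3888 up and 2285 down, became 3149 and 2909 under median-ratio scaling. Medians were -0.59 and -0.43, beside 0.08 over all genes. Of the 12 hosts 2 passed upwards (Snhg6 and Snhg18) and 2 downwards (Snhg15 and Snhg17), and without overexpression replicate 3 these counts were 4 and 3.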

How the data were processed

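Total RNA of 12 libraries was sequenced, and the analysis started from the RPKM matrix that the authors deposited. HISAT2 2.1.0, Subread 1.5.3 with featureCounts and the build mm10 are named in the submitters' processing notes, and their settings are not given in the sources used here. Deposited values were multiplied by 1000. Values times exon length (GENCODE M21, GRCm38) gave whole reads within 0.05 for 98.8% to 98.9% of values above 0. Those reads served for depth, class sums and voom.

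The test used limma 3.58.1 (R 4.3.3, variance trend) on log2(RPKM + 1), in a single model of 4 groups. It covered the 11245 genes that reached 1 RPKM in 3 libraries, with a Benjamini-Hochberg adjusted p of 0.05 as the threshold. The script was tested on simulated data. Members and lists were chosen with earlier results of these data known. The naming rule took all hosts, the 5 highest snoRNAs, up to 8 snoRNAs per comparison with 5 RPKM, snoRNAs in member hosts and up to 3 genes per list and comparison. Other genes were named after their values were seen. The result of 1 gene list is not reported here. Alternatives changed the pseudocount, filter, scaling, libraries fitted and variance model, or added a replicate block. Tables were made with pandas 2.3.3 and numpy 2.4.6 in Python 3.11.15, intervals with scipy 1.17.1 and figures with matplotlib 3.10.9.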

Additional observations from a re-analysis of the deposited data

Results flagged for a closer look

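For 13 of 40 members the responses to overexpression and to knockdown differed by a test of the difference itself (limma, adjusted over all 11245 genes), beside 54.9% of all tested genes. The values below are the log2 fold change with overexpression minus that with knockdown. The box C/D snoRNAs were Snord49b at -1.73, Snord34 at -1.41, Snord32a at -1.32, Snord49a at -1.29, Snord58b at -1.01 and Snord104 at -0.57. Snord34 is among them although neither of its own comparisons passed, with 22 empty vector, 12 overexpression, 24 scrambled and 42 knockdown reads. The box H/ACA snoRNAs were Snora17 at -0.91, Snora73b at -0.90 and Snora69 at -0.90. Among the hosts, Snhg17 was at -0.37 and Snhg15 at -0.35, while Snhg18 was at 0.27 and Snhg6 at 0.57. Snhg6 and Snord32a passed in both comparisons with opposite signs. The call of Snora17 was lost in 7 of the 12 fits that each left out 1 library, with adjusted p up to 0.102 (without knockdown replicate 2). That of Snord58b was lost in 8, up to 0.0763 (without knockdown replicate 3), and that of Snord104 in 5, up to 0.0642 (without knockdown replicate 3).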

How the results depend on the processing

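Over the alternatives, no called member changed its sign in any comparison. Of 19 members called with knockdown 11 stayed called under every alternative that tested them. So did 1 of 4 with overexpression, 6 of 13 for the difference and 5 of 12 between the controls. The filter of 10 reads left out members below it, among them Snord49b and Snord32a, and this was not counted as a lost call. Uncalled members that some alternative called numbered 6, 9, 8 and 5. With no filter, knockdown calls were 5 for box C/D and 1 for box H/ACA, overexpression calls 0 for box C/D and 1 for hosts, calls of the difference 2 for box C/D and 1 for box H/ACA, and calls between the controls 2 for box C/D and 4 for hosts. A filter of 10 reads on average, which leaves 7 of the 28 snoRNA and Cajal body members, gave 2 box C/D and 3 box H/ACA calls with knockdown, 0 box C/D calls with overexpression, 2 box C/D calls for the difference and 0 between the controls. With overexpression, box C/D calls were 0 at a pseudocount of 5 RPKM, 1 in a fit of only the libraries compared and 1 with voom. Box H/ACA calls were 1 with only the libraries compared. Host calls with overexpression were 1 under median-ratio scaling, 1 under TPM scaling and 1 with only the libraries compared. Host calls between the controls were 3 under median-ratio scaling and 3 when scaled to reads outside the mitochondrial genome, an alternative chosen after seeing the data. For these the cause was not tested.

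Leaving out each library in turn gave 0 to 2 box C/D, 0 to 1 box H/ACA and 1 to 4 host calls with overexpression. With knockdown it gave 6 to 10, 1 to 5 and 5 to 6, for the difference 4 to 7, 2 to 3 and 4 to 7, and between the controls 2 to 6, 0 to 1 and 4 to 7. Deviations of same-numbered libraries correlated at -0.01, 0.12 and 0.08 for overexpression and at -0.07, 0.05 and -0.06 for knockdown. With 3 libraries per group these values cannot exclude pairing by replicate number. A fit with the replicate number as a block called 5888 genes with overexpression, 5709 with knockdown, 6328 for the difference and 8164 between the controls. The main fit called 5775, 5587, 6173 and 8070. With overexpression the block fit called 1 box C/D and 1 box H/ACA member. Depth limits 21 of 28 snoRNA members, which had under 10 reads per library on average.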

Other observations

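Of the 152 listed snoRNA genes under other names, 20 passed the filter, of which 4 rose and 0 fell with knockdown, beside 18.7% and 31% of all tested genes. At the same test 19 of the 20 had a log2 fold change above 0, with a median of 0.36. Gm23201, which overlaps an exon of the noncoding host Zfas1 on the same strand of chromosome 2, was at 2.96, 4.97 and 1.91 RPKM with empty vector, 2.74, 4.89 and 4.27 with overexpression, 2.94, 2.06 and 3.86 with the scrambled hairpin and 7.79, 10.1 and 9.86 with knockdown. Its knockdown libraries were the 3 highest of the 12 (log2 fold change 1.39, adjusted p = 5.68e-04), on 30 and 93 reads. Zfas1 itself was at 20.1 ± 1.05 RPKM with the scrambled hairpin and 19.2 ± 2.06 with knockdown (-0.07, adjusted p = 0.595). Gm24616 in Eif4a2 (0.82) and Gm27326 in Rpl23 (0.75) rose as well. Eif4a2, an RNA helicase of translation initiation, fell at the same time from 55.7 ± 0.949 to 42.4 ± 1.85 RPKM (-0.39, adjusted p = 5.57e-05), whereas Gm25835 and its host Eif4a1 rose together (0.39 and 0.40). These genes were named after their values were seen.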
